A study of Mus musculus with 9 samples.

Results

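The fibroblast growth factor (FGF) system was followed in the choroid (CH), the retinal pigment epithelium (RPE) and the photoreceptors (PR) of the mouse eye. The genes were taken by name from the array design: every gene named Fgf with a number, the receptors Fgfr1 to Fgfr4 and Fgfrl1, the co-receptors Kl and Klb, and the feedback genes Spry1 to Spry4, Spred1, Spred2 and Dusp6. This gave 36 of the 31829 gene names on the array, read by 53 of its 39429 probes. The rule reads gene names alone. The tissues came from healthy female C57BL/6 mice, of the J strain by the study's methods, which the labels put at an age of 6 months with a range of 2 weeks and the study's methods at an age 1 month lower. Each sample was cut from 1 whole eye with a laser microscope, with 3 samples per tissue and 9 dual-colour Agilent arrays in all. Tissue RNA was labelled with Cy5, and RNA of mouse RPE and choroid, labelled with Cy3, served as the common reference on every array. All values below are log2 ratios of Cy5 to Cy3 or differences of such ratios between tissues. The ratios were centred by loess within each array. A ratio of 0 therefore means the usual ratio to the reference among that array's probes of like signal, not equal amounts of RNA. A gene was called when its fold change (FC) was above 2.5 and its Benjamini-Hochberg (B-H) adjusted p in limma, over all probes, was below 0.01. Where a gene had several probes, the brightest stood for it.

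Secreted FGFs bind receptor tyrosine kinases at the cell surface together with heparan sulfate, and the receptor then activates the RAS-ERK cascade through adaptor proteins. The cascade switches on genes that damp it again. Sprouty and Spred proteins act on RAS and RAF, and Dusp6 removes phosphate from ERK. Endocrine FGFs travel in the blood and need a klotho protein beside the receptor, while the FGF homologous factors stay inside the cell and bind sodium channels. In the eye, FGFs take part in setting apart the retina and RPE during development and are known as survival factors for photoreceptors.

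Probe sequences are given here because 2 of the 53 probes, both with a simple repeat, shared runs of 20 bases with probes of other genes, which bears on how Fgf23 and Fgfr1 can be read, and because some probes of a gene overlapped. Spry1, Dusp6 and Fgf9 are shown as genes with large differences between tissues whose probes share no such run. Each probe has 60 bases, of which 30 are printed 5′ to 3′. Positions are those of the files, on mm9, and the files do not say in which part of a transcript a probe lies. In the first group, capitals mark bases that belong to a run of 20 bases found, on either strand, in a probe of another gene.
Fgf23, brightest probe, chr6:127030758-127030817, plus strand: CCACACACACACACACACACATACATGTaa
Fgf23, other probe, chr6:127031289-127031348, plus strand: tttagtgaaagcctccgctagcaggttgac
Fgfr1, brightest probe, chr8:26685072-26685131, plus strand: gagacgcccagggtagcatccgttgctata
Fgfr1, downstream probe, chr8:26685820-26685879, plus strand: GTTTGTTTTTGTTTTTTGTTTGTTTGTTTG
Fgfr1, upstream probe, chr8:26684061-26684120, plus strand: agacctacgttcaagcagttggtggaagac
Spry1, chr3:37543403-37543462, plus strand: ctcatgtctgaatataacatatcactactt
Dusp6, chr10:98729985-98730044, plus strand: catttggtggatgcaacaggttgagaggaa
Fgf9, chr14:58728897-58728956, plus strand: atcagttcattcacactggtatcatagccc

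In the second group, capitals mark bases that the probe shares with the other probe of the same gene. The probes of Fgf18 share 26 of 60 bases and those of Fgfr2 share 42, so neither pair is a fully independent check of the gene.
Fgf18, brightest probe, chr11:33017440-33017499, minus strand: ACGAGGAAACTGCGAGAAACCAAAGTcctt
Fgf18, other probe, chr11:33017474-33017533, minus strand: ttgaACGAGGAAACTGCGAGAAACCAAAGT
Fgfr2, brightest probe, chr7:137307473-137307532, minus strand: CTGCCTCAGTATCCACACATAAACGGCAGT
Fgfr2, other probe, chr7:137307455-137307514, minus strand: CTGCCTCAGTATCCACACATAAACGGCAGT

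The labelled tissues were checked against marker genes. Of 8 RPE markers, 6 were called higher in RPE than in CH and 7 higher in RPE than in PR, while all 8 rod and all 6 cone markers were called higher in PR than in either tissue. All 6 fibroblast markers were called higher in CH than in RPE. Of 8 endothelium markers, 0 were called between RPE and CH (limma, 1 past an unadjusted p of 0.05), with a mean ratio between 1.22 and 1.36 on RPE arrays and between 1.09 and 1.71 on CH arrays. Lens markers varied widely between arrays of the same tissue. The mean ratio of 5 such markers was between -2.20 and 2.32 on CH arrays, 0.92 and 4.14 on RPE arrays and 0.80 and 2.33 on PR arrays. The part of lens RNA in the results was not tested. Between 62.1% and 71.2% of the probes were well above background in Cy5 on 8 of the arrays, but 91.7% on the array of RPE replicate 2. The arrays lay on 3 slides. Slide 1 held PR replicates 1 and 3, slide 2 held replicates 1 and 3 of CH and RPE, and slide 3 held replicate 2 of each tissue. The number of arrays limits the precision of every value. The labels and methods do not say whether the eyes came from separate animals, so p-values measure the spread between these samples.

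Of the 36 genes, 25 were well above background on all arrays of at least 1 tissue and 19 on all 9 arrays. Fgf10, Fgf16 and Fgf21 were not well above background on any array. The other 8 (Fgf2, Fgf3, Fgf4, Fgf14, Fgf15, Fgf20, Kl and Klb) reached that level on some arrays of a tissue at most, and 6 of these 8 did so on the array of RPE replicate 2 alone. No probe of the 36 genes was saturated.

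At the brightest probe, most of the receptors and of the feedback genes were far lower in PR than in both neighbouring tissues. For Fgfr1 and Fgfr3 the other probes gave much smaller differences, given below. In all, 10 of the 36 genes were called higher in RPE than in PR, where 10.9% of all genes were, and 11 of 36 were called higher in CH than in PR, where 12.7% of all genes were. In the other direction, Fgf5, Fgf9 and Spry3 were called higher in PR than in RPE and also than in CH, 3 of 36 in each comparison, against 5.19% and 6.01% of all genes. Both comparisons share PR arrays. The median log2 difference over the 36 genes was 0.18 for RPE minus PR and 0.07 for CH minus PR, against -0.01 and -0.05 over all genes. The 10 genes higher in RPE were the ligands Fgf1 and Fgf7, the receptors Fgfr1, Fgfr3 and Fgfrl1, and the feedback genes Spry1, Spry4, Spred1, Spred2 and Dusp6. The same 10 genes and the ligand Fgf18 were higher in CH. With the slide as a block, 11 genes were called higher and 3 lower in RPE than in PR, and 11 higher and 3 lower in CH than in PR. Within slide 3, which held 1 array of each tissue and so gave no test, RPE minus PR was 6.32 for Spry1, 4.78 for Dusp6 and -2.82 for Fgf9. In bulk tissue, fewer cells of a type and less RNA per cell cannot be told apart.

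**Figure D1:**
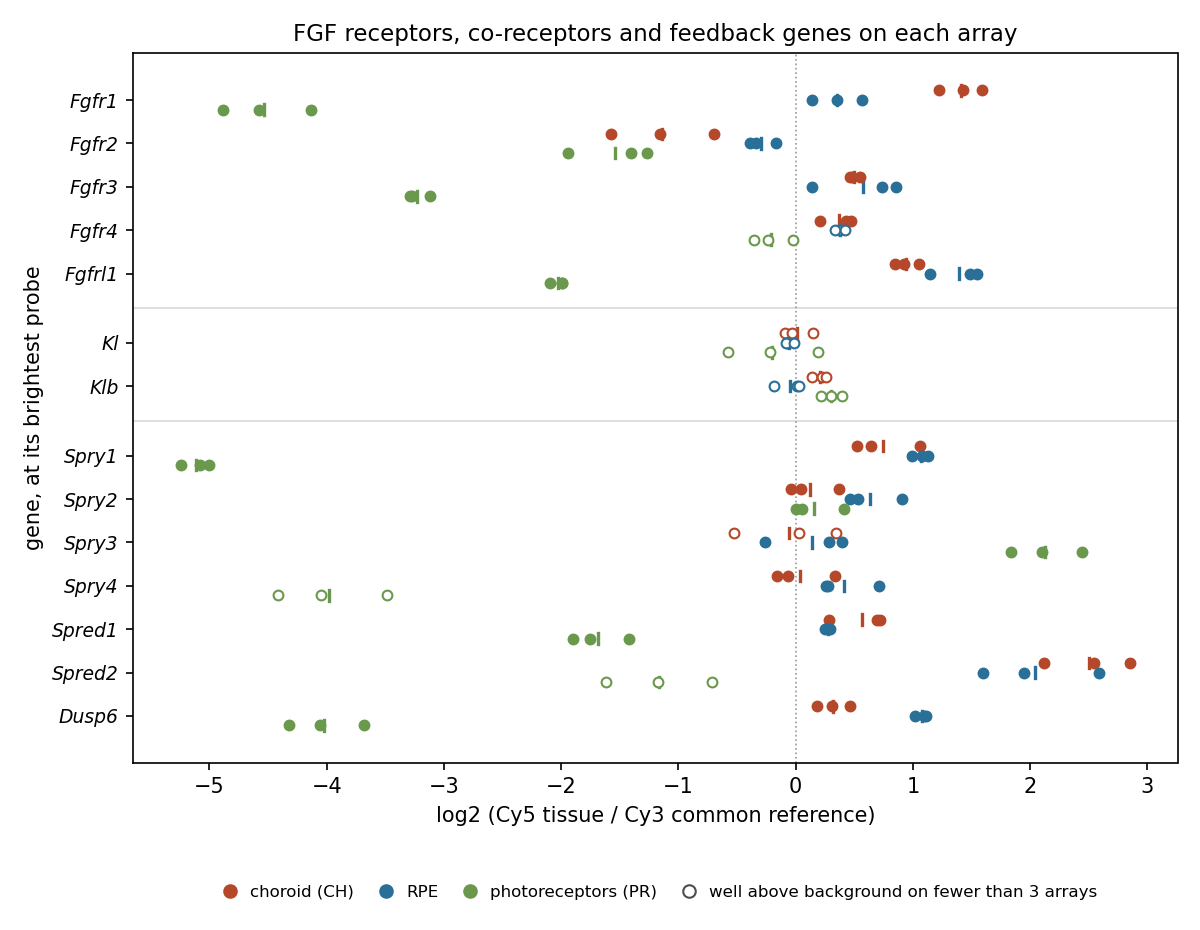
Log2 ratio of the tissue (Cy5) to the common reference (Cy3) on each of 9 arrays for the receptors, the co-receptors and the feedback genes, at the brightest probe. Points are arrays, short bars are the means of 3 arrays, and open points mark a tissue in which the probe was well above background on fewer than 3 arrays. The PR points of Spry1 lie between -5.25 and -5.01, while its CH and RPE points lie between 0.52 and 1.13.

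Spry1, a Sprouty inhibitor that growth factors induce, had the largest difference of all 36 genes. Its log2 ratio was 0.52, 0.65 and 1.06 in CH, 0.99, 1.08 and 1.13 in RPE and -5.08, -5.25 and -5.01 in PR. CH and RPE arrays overlapped, and every PR array lay far below them. Spry1 was 72.3-fold higher in RPE than in PR (log2 difference 6.18, SE 0.14, B-H adjusted p = 4.11e-09) and 57.8-fold higher in CH than in PR (B-H adjusted p = 2.4e-09).

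Dusp6, the ERK phosphatase, showed a graded order with no overlap between the tissues. The ratios were 0.31, 0.18 and 0.47 in CH, 1.02, 1.10 and 1.11 in RPE and -4.06, -3.68 and -4.32 in PR. RPE was 34.2-fold above PR (log2 difference 5.10, SE 0.15, B-H adjusted p = 1e-08) and CH 20.3-fold above PR. RPE also lay above CH, by 0.76 on the log2 scale (B-H adjusted p = 0.00675), which is a FC of 1.69 and under the fold threshold.

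Spry4, another Sprouty, gave ratios of -0.16, -0.07 and 0.33 in CH, 0.28, 0.26 and 0.71 in RPE and -4.05, -3.48 and -4.41 in PR. On 2 of the 3 PR arrays its signal was well above background. The difference was 4.39 for RPE minus PR (SE 0.23, B-H adjusted p = 2.38e-07) and 4.02 for CH minus PR, while CH and RPE overlapped.

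Spred2, an inhibitor of RAF activation, was the feedback gene with the highest mean ratio in CH and RPE. It had ratios of 2.55, 2.85 and 2.12 in CH, 2.59, 1.59 and 1.95 in RPE and -1.62, -0.72 and -1.17 in PR, where 2 of 3 arrays were well above background. RPE exceeded PR 9.27-fold (log2 difference 3.21, SE 0.30, B-H adjusted p = 1.05e-05) and CH exceeded PR 12.8-fold. Spred1 was lower in PR as well, by 1.96 against RPE and 2.26 against CH, and its second probe was also called, with 1.81 and 1.97.

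The remaining Sprouty genes did not follow this order. Spry2 differed by 0.48 between RPE and PR (B-H adjusted p = 0.0351) and by -0.03 between CH and PR (B-H adjusted p = 0.883), neither past the thresholds. Spry3 ran the other way. Its ratio was between 1.84 and 2.44 on PR arrays, between -0.26 and 0.40 on RPE arrays and between -0.53 and 0.34 on CH arrays, 3.96-fold higher in PR than in RPE (B-H adjusted p = 9.5e-05) and 4.53-fold higher than in CH. The files place its probe on an unassembled part of chromosome X. Of the 7 feedback genes, 5 were thus called lower in PR in both comparisons, against 10.9% and 12.7% of all genes, and 1 higher, against 5.19% and 6.01%.

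Among the receptors, Fgfr1 and Fgfr3, both receptor tyrosine kinases, and Fgfrl1, which lacks the kinase, were lower in PR. Fgfr1 had ratios of 1.22, 1.59 and 1.43 in CH, 0.14, 0.57 and 0.35 in RPE and -4.89, -4.13 and -4.58 in PR at its brightest probe. The tissues did not overlap. RPE exceeded PR by 4.89 (SE 0.19, B-H adjusted p = 3.71e-08), CH exceeded PR by 5.94 (B-H adjusted p = 8.4e-09), and CH exceeded RPE 2.08-fold (B-H adjusted p = 0.00406), under the fold threshold.

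Fgfr3 gave 0.48, 0.55 and 0.46 in CH, 0.14, 0.73 and 0.86 in RPE and -3.27, -3.29 and -3.12 in PR. CH and RPE overlapped, and PR lay 14.0-fold below RPE (log2 difference 3.80, SE 0.17, B-H adjusted p = 6.79e-08) and 13.2-fold below CH. Fgfrl1, at chr5:109135855-109135914, gave 0.93, 0.85 and 1.05 in CH, 1.15, 1.55 and 1.48 in RPE and -1.99, -2.09 and -1.99 in PR. It was 10.7-fold higher in RPE than in PR (log2 difference 3.42, SE 0.12, B-H adjusted p = 2.01e-08) and 7.81-fold higher in CH.

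Fgfr2, the receptor for the FGF7 subfamily in epithelia, had the largest difference in favour of RPE over CH among the 36 genes, and its 3 RPE arrays lay above all CH and PR arrays. The ratio was between -0.39 and -0.17 on RPE arrays, between -1.57 and -0.69 on CH arrays and between -1.94 and -1.26 on PR arrays. RPE minus PR was 1.24 (FC 2.36, B-H adjusted p = 0.00123), just under the fold threshold, and 1.63 (B-H adjusted p = 1.64e-05) at the overlapping probe, which was called. RPE minus CH was 0.84 and 0.88 at these probes (B-H adjusted p = 0.0263 and 0.00421), with FC below 2.5. Fgfr4 differed by 0.58 in both comparisons with PR (B-H adjusted p = 0.00163 and 0.00157), with FC below 2.5. With the slide as a block, Fgfr4 differed by 0.30 and 0.29, not past an adjusted p of 0.05 (0.142 and 0.144), and its other probe, well above background on 1 array of each tissue, gave -0.08 and -0.22.

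Markers of endothelium, fibroblasts, pericytes and smooth muscle, and melanocytes were also lowest in PR. The mean ratio of the 8 endothelium markers was between -1.92 and -1.77 on PR arrays, that of the 6 fibroblast markers between -4.99 and -4.41, that of the 6 pericyte and smooth muscle markers between -2.50 and -2.46 and that of the 6 melanocyte markers between -3.46 and -3.29. In CH these means were between 1.09 and 1.71, 1.27 and 1.69, 1.00 and 1.71, and 0.09 and 0.48. In RPE they were between 1.22 and 1.36, -1.14 and -0.79, 0.21 and 0.49, and -0.37 and -0.21. All but the endothelium means were thus lower on every RPE array than on any CH array. The endothelium means overlapped, with 1.28 over the RPE arrays and 1.41 over the CH arrays. Every marker of these lists was well above background on all arrays of all tissues. The mean of the 8 RPE markers was between -3.06 and -2.90 in PR, 0.42 and 1.13 in CH and 1.78 and 2.34 in RPE. Not every list was lowest in PR. The inner retina mean was -1.65 in PR, -1.97 in CH and -1.86 in RPE, and the lens mean was 1.56, 0.70 and 2.10. The part of any of these cells in the receptor and feedback results was not tested.

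**Figure D2:**
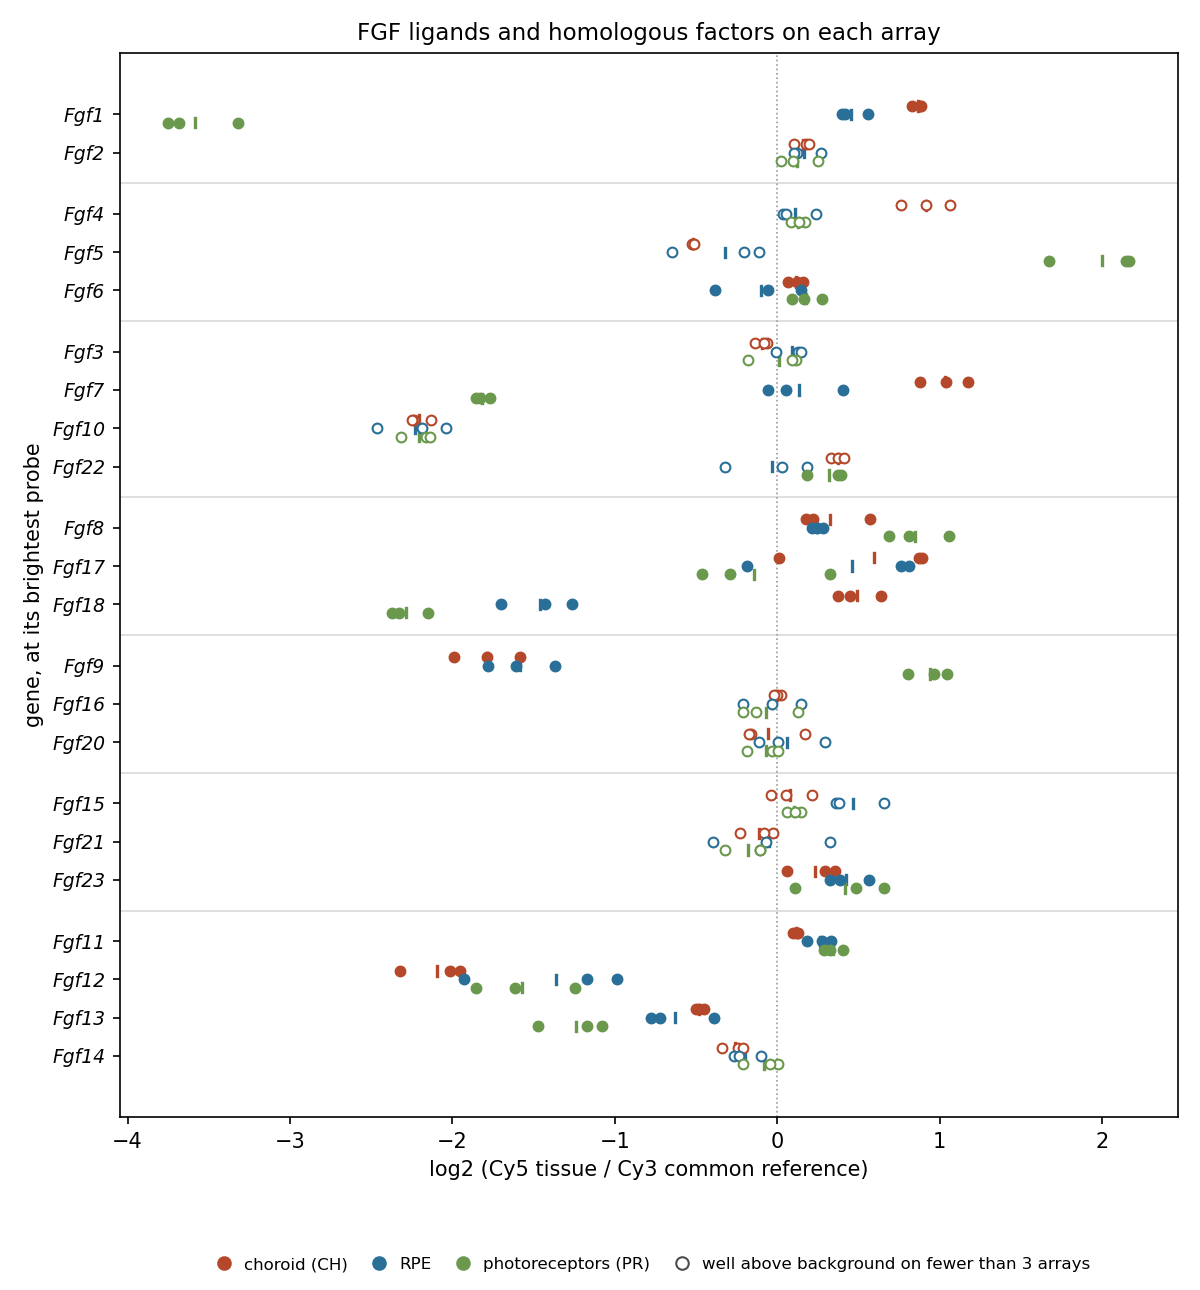
Log2 ratio of the tissue (Cy5) to the common reference (Cy3) on each of 9 arrays for the ligands and the homologous factors, at the brightest probe, with lines between subfamilies. Points are arrays, short bars are the means of 3 arrays, and open points mark a tissue in which the probe was well above background on fewer than 3 arrays. Fgf1, Fgf7 and Fgf18 have their lowest points in PR, and Fgf5 and Fgf9 their highest.

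Of 18 secreted ligands, 2 were called higher and 2 lower in RPE than in PR, and 3 were called higher and 2 lower in CH than in PR. Of all genes, 10.9% and 5.19% were called higher and lower in RPE than in PR, and 12.7% and 6.01% in CH than in PR, so the ligand counts higher than PR lay near the background. Fgf1, or acidic FGF, which binds all FGF receptors, had the largest difference. Its ratios were 0.83, 0.89 and 0.88 in CH, 0.42, 0.56 and 0.40 in RPE and -3.75, -3.32 and -3.69 in PR at chr18:38998337-38998396, without overlap between the tissues. It was 16.5-fold higher in RPE than in PR (log2 difference 4.04, SE 0.12, B-H adjusted p = 9.84e-09) and 21.9-fold higher in CH than in PR (B-H adjusted p = 3.85e-09). Fgf7, the keratinocyte growth factor that mesenchymal cells make for epithelia, fell in steps from CH to RPE to PR. The ratio was between 0.88 and 1.18 in CH, between -0.06 and 0.40 in RPE and between -1.86 and -1.77 in PR. Fgf7 was 3.87-fold higher in RPE and 7.20-fold higher in CH than in PR, and 1.86-fold higher in CH than in RPE (B-H adjusted p = 0.0014).

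Fgf9 and Fgf5 were the ligands highest in PR. Fgf9, a diffusible ligand made by neurons among other cells, had ratios between 0.80 and 1.05 on PR arrays, between -1.78 and -1.37 on RPE arrays and between -1.99 and -1.59 on CH arrays, and all 3 tissues were well above background. Its signal in PR was 5.75-fold that in RPE (log2 difference -2.52 for RPE minus PR, SE 0.14, B-H adjusted p = 2.95e-07) and 6.61-fold that in CH. Fgf5, known for ending the growth phase of hair, was well above background on all 3 PR arrays and on no CH or RPE array. Its fold is therefore a bound, computed against the lowest signal that counted as well above background on each array: at least 4.51-fold higher in PR than in RPE (B-H adjusted p = 1.87e-06) and at least 3.51-fold higher than in CH (B-H adjusted p = 8.32e-07). At the brightest Fgf8 probe, RPE minus PR was -0.61 and CH minus PR -0.53 (B-H adjusted p = 0.00334 and 0.00664), with FC of 1.52 and 1.44. With the slide as a block these were -0.50 and -0.42 and no longer past an adjusted p of 0.05 (0.0896 and 0.137). Another Fgf8 probe, well above background on 1 RPE array and no other, gave 0.57 for RPE minus PR. In PR, the mean ratio of the 8 rod markers was between 3.40 and 3.66 and that of the 6 cone markers between 2.71 and 2.90. The rod means were between -1.23 and -0.43 in CH and between -0.71 and 0.26 in RPE. The cone means were between -1.39 and -0.75 in CH and between -0.84 and -0.47 in RPE. Every rod and cone marker was well above background on all CH and RPE arrays too. The rod markers Gnat1, Pde6g and Sag were saturated on all 3 PR arrays. The part of rods and cones in the Fgf9, Fgf5 and Spry3 results was not tested.

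Between RPE and CH, Fgf18 was the only one of the 36 genes called, higher in CH, where 1.74% of all genes were called. No gene of the 36 was called higher in RPE (0 by limma, against 0.179% of all genes). Past an unadjusted p of 0.05 in limma, 7 of the 36 were higher and 7 lower in RPE than in CH. Of all 31829 genes, 5327 were higher and 5345 lower at the same p, so these counts lay near the background. Fgf18, a ligand known from bone and lung development, had ratios of 0.45, 0.64 and 0.37 in CH, -1.43, -1.26 and -1.70 in RPE and -2.15, -2.37 and -2.33 in PR. The tissues did not overlap. It was 3.87-fold higher in CH than in RPE (log2 difference -1.95 for RPE minus CH, SE 0.13, B-H adjusted p = 5.9e-05) and 6.83-fold higher in CH than in PR (B-H adjusted p = 7.61e-08). RPE exceeded PR by 0.82 (B-H adjusted p = 0.000454), under the fold threshold. The second Fgf18 probe overlaps the first and gave -1.94, 2.88 and 0.94. With the slide as a block the Fgf18 difference was -1.95 (B-H adjusted p = 0.000135). Within slide 2 alone, which held 2 arrays of each of CH and RPE, it was -1.98 with a B-H adjusted p of 0.021, past the fold threshold but no longer past that for p.

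Below the fold threshold, the genes past an adjusted p of 0.05 in limma divided between the tissues. Dusp6, Fgfr2 and Fgfrl1 were higher in RPE, with differences of 0.76, 0.84 and 0.45. Fgf1, Fgf7 and Fgfr1 were higher in CH, but for Fgf1 and Fgfr1 this held at the brightest probe alone. Fgf4 and Fgf15 also passed this p, but they were well above background on no CH array and on 1 RPE array, so their values compare background with background and give no direction. Fibroblast markers moved with the genes higher in CH: their mean ratio was between 1.27 and 1.69 on CH arrays and between -1.14 and -0.79 on RPE arrays. RPE markers moved with the genes higher in RPE, with a mean ratio between 1.78 and 2.34 on RPE arrays and between 0.42 and 1.13 on CH arrays. Among these markers Rpe65, Rdh5 and Ttr were saturated on all 3 RPE arrays, and Ttr on all 3 CH arrays too, and among the fibroblast markers Dcn was saturated on all 3 CH arrays, so these means hold values limited by the scanner. Other marker lists differed too. Mean ratios in CH and RPE were 1.47 and 0.31 for pericytes and smooth muscle and 0.34 and -0.28 for melanocytes. For immune cells they were 0.24 and -0.13. Rods (-0.81 and -0.25), cones (-1.02 and -0.71) and lens (0.70 and 2.10) had the higher mean in RPE, with overlap between the arrays. The part of any of these cells in the differences was not tested.

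**Figure D3:**
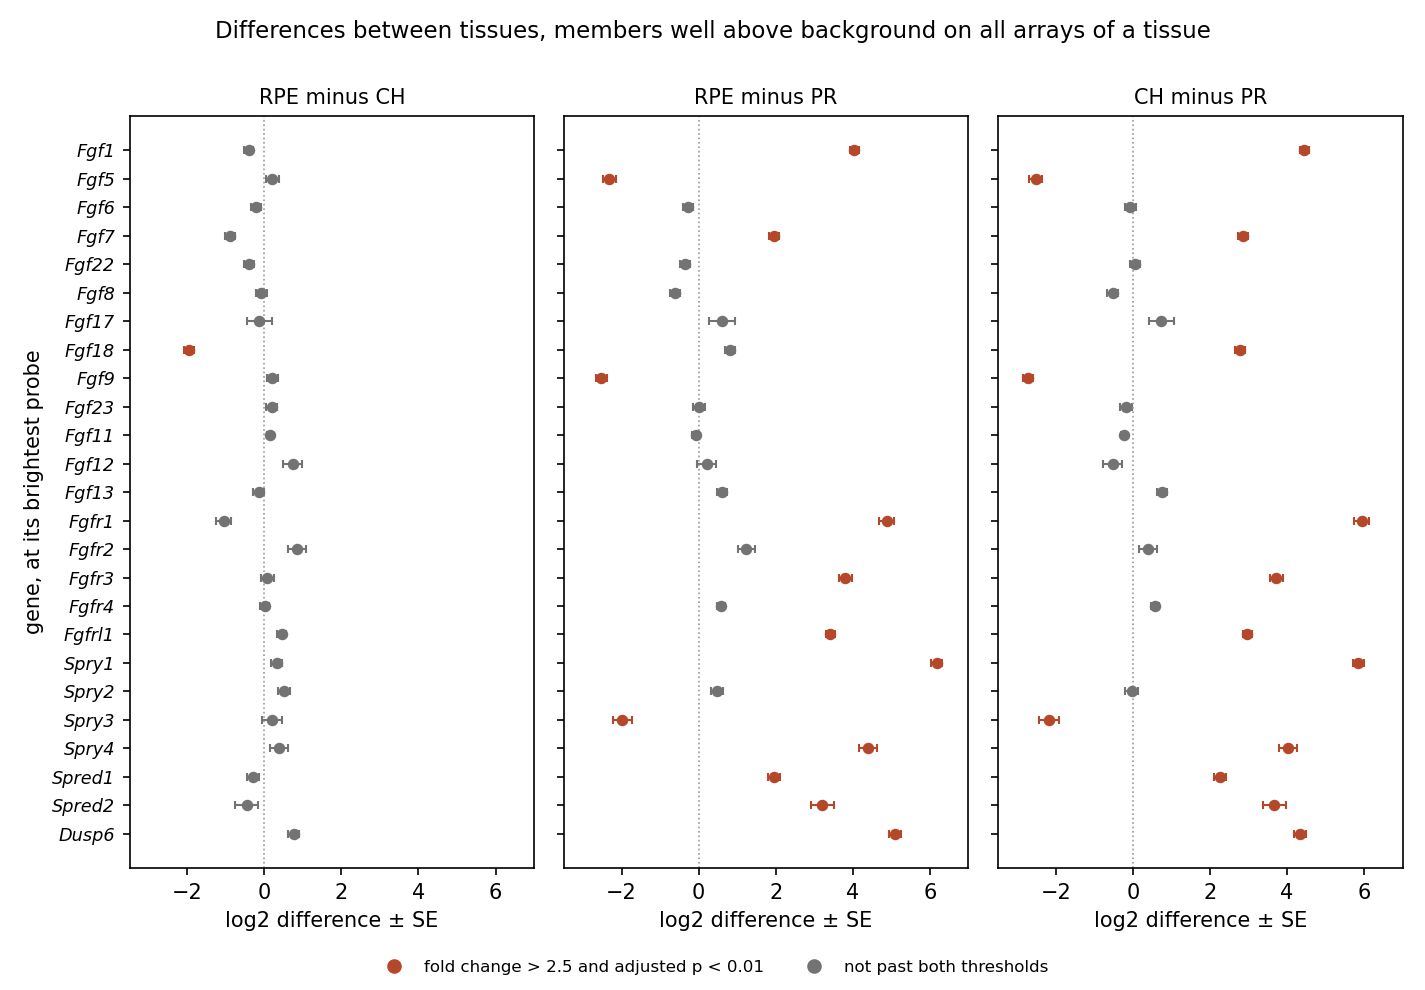
Log2 difference between tissues with its standard error (limma, 3 arrays per tissue) for the 25 genes well above background on all arrays of at least 1 tissue. Red points passed a fold change of 2.5 and an adjusted p of 0.01. Only Fgf18 passed between RPE and CH, while the points of the comparisons with PR reach from -2.73 to 6.18.

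Probes of a gene disagreed in size for 3 of the genes called lower in PR. At the other Fgf1 probe, which lies 19937 bases upstream in the genome, RPE minus PR was 1.11 and CH minus PR 1.10 (FC below 2.5), against 4.04 and 4.45 at the brightest probe. At the other Fgfr3 probe, 1793 bases upstream, the differences were 1.03 and 0.45, against 3.80 and 3.72. For Fgfr1, the probe 1011 bases upstream gave 1.15 and 0.94, and the repeat-bearing probe 748 bases downstream gave 0.47 and 0.40, against 4.89 and 5.94. The direction was the same at every one of these probes, but no dimmer probe passed the fold threshold. At the other Fgfr3 probe, CH and PR arrays overlapped (B-H adjusted p = 0.152 in limma). The downstream Fgfr1 probe also missed the p threshold (B-H adjusted p = 0.0165 against RPE and 0.0307 against CH). With the median over the probes of a gene on each array in place of the brightest, RPE minus PR was 2.58 for Fgf1, 1.88 for Fgfr1 and 2.42 for Fgfr3, all still called. The higher Fgfr1 ratio in CH than in RPE rested on 1 probe, as its other probes gave 0.07 and 0.21 for RPE minus CH (B-H adjusted p = 0.791 and 0.268). That of Fgf1 also rested on 1 probe. The other Fgf1 probe gave 0.01 for RPE minus CH, with overlap between the arrays (B-H adjusted p = 0.97 in limma).

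**Figure D4:**
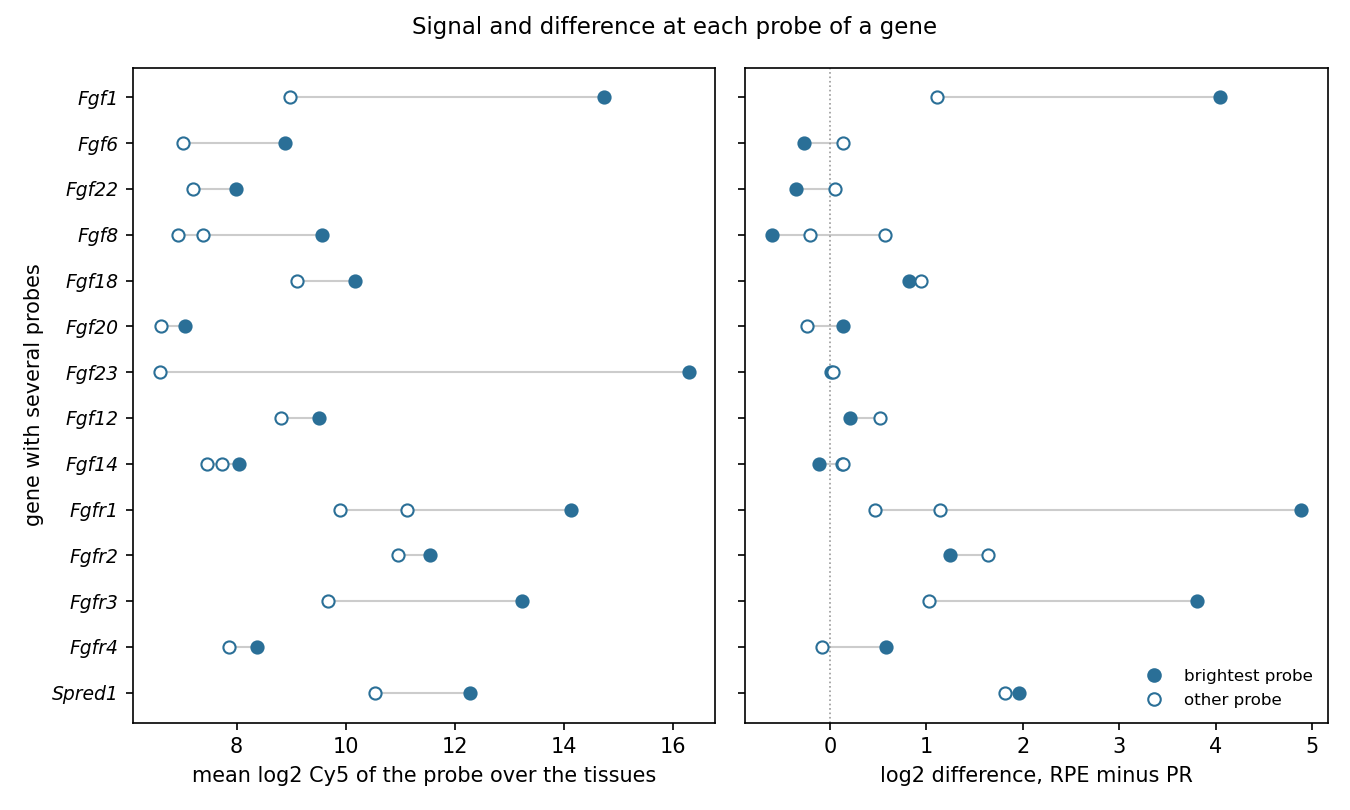
Mean log2 Cy5 signal over the tissues (left) and log2 difference RPE minus PR (right) at each probe of the 14 genes with several probes. Filled points are the brightest probe of a gene, open points its other probes. Signal depends on the probe as well as on the RNA. For Fgf1, Fgfr1 and Fgfr3 the brightest probe lies at 4.04, 4.89 and 3.80, and their other probes lie between 0.47 and 1.15.

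Fgf23, the endocrine ligand that bone makes to regulate phosphate, was read by 2 probes that differed in detection. The brightest probe was well above background on all 9 arrays, with ratios between 0.06 and 0.35 in CH, 0.33 and 0.56 in RPE and 0.11 and 0.66 in PR. The differences there were 0.19 for RPE minus CH, 0.01 for RPE minus PR and -0.18 for CH minus PR (SE 0.15), none past the test (B-H adjusted p between 0.338 and 0.976). Its log2 Cy5 signal was 16.4 in CH, 16.5 in RPE and 15.9 in PR, and 2.84% of all probes were brighter. The other probe, which lies downstream, was not well above background on any array. The sequence of the bright probe begins with the CA repeat shown above. It shared a run of 20 bases with probes of other genes on the same strand for 21 probes and on the opposite strand for 51. All 72 of those probes were well above background on all 9 arrays, against 56.5% of all probes. The 21 probes on the same strand had a median log2 Cy5 signal of 15.87 (lowest 12.05, highest 17.18), where the median of all probes was 9.52. Whether the bright signal comes from Fgf23 RNA was not tested. The repeat-bearing Fgfr1 probe shared such a run with 9 probes of other genes, and no other probe of the 36 genes shared any.

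The remaining genes gave no call in any comparison at their brightest probe. Of the ligands, Fgf6, Fgf8 and Fgf17 were well above background on all 9 arrays at their brightest probe, and Fgf22 on all PR arrays. The other probes of Fgf6, Fgf8 and Fgf22 were well above background on 1 RPE array each and on no CH or PR array. Fgf17 varied within tissues: CH replicate 2 and RPE replicate 2, both on slide 3, had ratios of 0.01 and -0.18, against 0.76 to 0.89 on the other CH and RPE arrays. The homologous factors Fgf11, Fgf12 and Fgf13 were well above background on all 9 arrays at their brightest probe. Fgf12 was 1.66-fold higher in RPE than in CH (B-H adjusted p = 0.058), with the array of RPE replicate 2 at -1.93 and the other RPE arrays at -1.17 and -0.99. Its other probe gave a FC of 1.89 without overlap between RPE and CH (B-H adjusted p = 0.027), past neither threshold. For Fgf13, RPE minus PR was 0.61 and CH minus PR 0.76 (B-H adjusted p = 0.00355 and 0.000812), with FC below 2.5. With the slide as a block these were 0.40 and 0.55 and not past an adjusted p of 0.05 (0.178 and 0.0691). Fgf2, or basic FGF, and the klotho genes Kl and Klb were not well above background on most arrays. For the probes of Fgf2, Fgf10, Fgf12 and Fgfr2 that were spotted 10 times, the median SD between spots of an array was 0.05 to 0.11. The brightest probes of the called genes were spotted once, so their spot noise was not measured.

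Other genes of the pathway were read in 4 lists with 53 genes on the array. Between RPE and PR, 19 of the 53 were called higher in RPE and 2 higher in PR, against 10.9% and 5.19% of all genes. Between CH and PR, 20 were called higher in CH and 2 higher in PR, against 12.7% and 6.01%. Between RPE and CH, 1 was called, higher in CH, against 1.74%. The median difference over the 53 genes was 0.65, 0.63 and 0.01 for RPE minus PR, CH minus PR and RPE minus CH.

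Among targets of ERK, the list of ERK-induced transcription factors and cyclin D1 held 10 genes. Of these, 7 were called higher in RPE than in PR and 6 higher in CH than in PR, with 0 lower, against 10.9% and 12.7% of all genes called higher, and the median differences were 1.80 and 1.67. Of 8 further ERK feedback inhibitors, 4 were called higher in RPE and 4 higher in CH than in PR, against the same shares of all genes. Dusp4, an ERK phosphatase of the nucleus, was 10.9-fold higher in RPE than in PR (B-H adjusted p = 3.66e-08). Il17rd, also known as Sef, which holds back FGF signalling, was 9.94-fold higher in RPE and 11.5-fold higher in CH than in PR. Dusp5, another nuclear ERK phosphatase, was 2.52-fold higher in PR than in CH (B-H adjusted p = 0.000243).

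In the cascade itself, of 23 adaptor and RAS-ERK genes, 3 were called higher and 1 lower in RPE than in PR, and 4 higher and 1 lower in CH than in PR. These counts lay near the shares of all genes (10.9% and 5.19%, and 12.7% and 6.01%). Rps6ka1, a kinase that ERK activates, was 10.8-fold higher in CH than in PR. Of 12 carriers and receptor partners, 5 were called higher and 1 lower in RPE than in PR, and 6 were called higher in CH than in PR. Ncam1, a cell adhesion molecule that can bind FGF receptors, was 2.71-fold higher in PR than in RPE (B-H adjusted p = 7.21e-05). Flrt3, a membrane protein that binds FGF receptors, was the pathway gene called between RPE and CH, 2.92-fold higher in CH (B-H adjusted p = 0.000723).

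**Figure D5:**
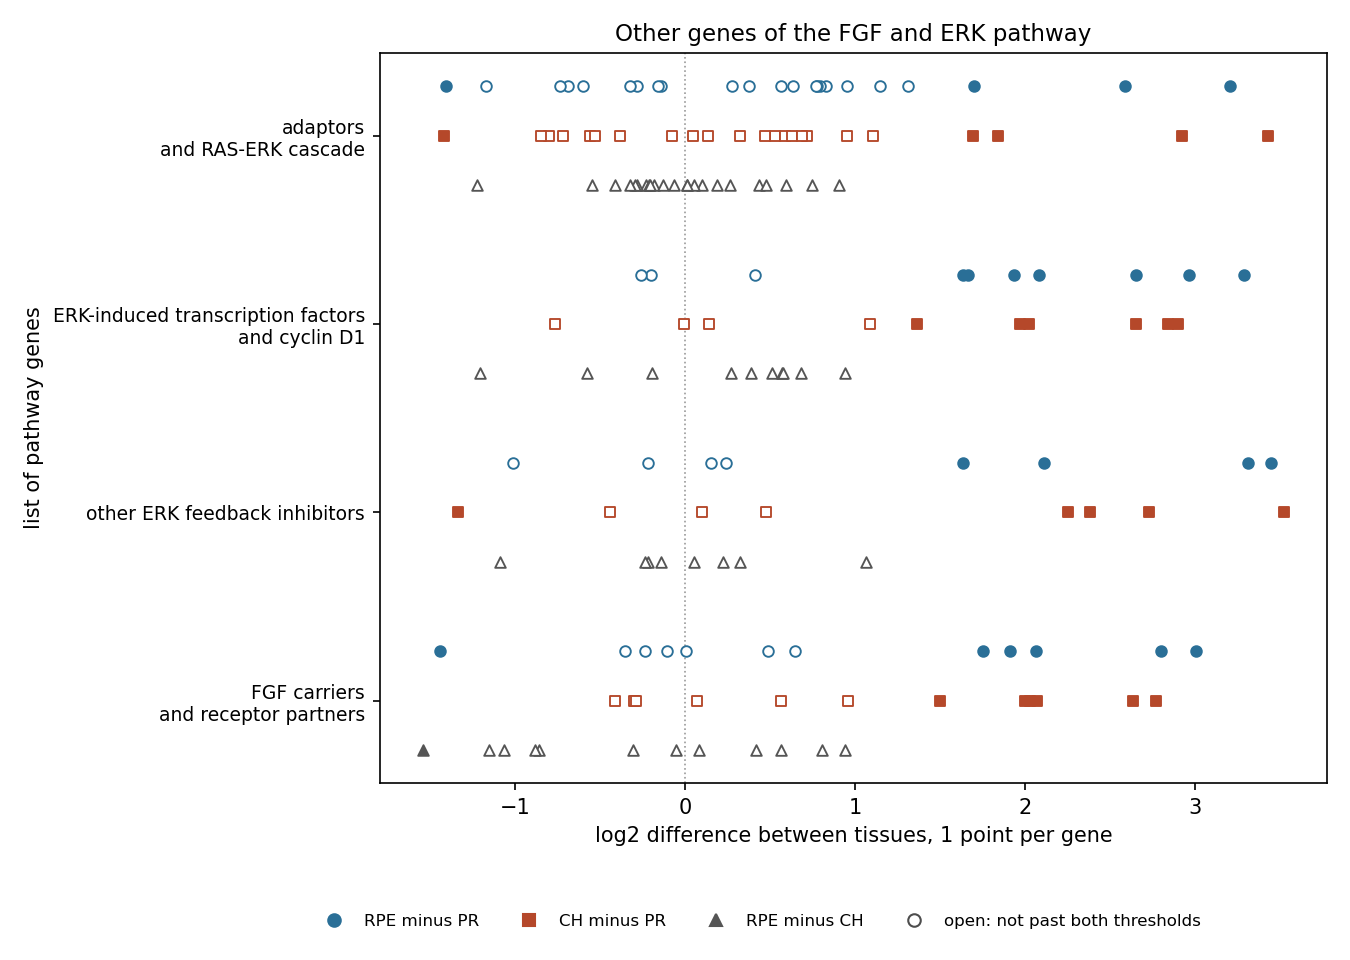
Log2 difference between tissues for 53 other genes of the pathway in 4 lists, 1 point per gene. Circles are RPE minus PR, squares CH minus PR and triangles RPE minus CH, and filled points passed a fold change of 2.5 and an adjusted p of 0.01. Filled circles and squares lie mostly above 0, and Flrt3 is the only filled triangle.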

How the data were processed

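The authors scanned the arrays and read them with Agilent Feature Extraction 9.5.3.1. Mean signal and median local background were deposited as intensity values. The software's log ratio (log10, processed Cy5 to Cy3) and a series table by the authors (log2 Cy5, normalization unstated) were deposited too and served as alternatives. From the intensities, background was corrected (normexp, offset 50), log2(Cy5/Cy3) was normalized by loess within arrays, spots marked as outliers were left out and spots of a probe were averaged. Tissue means were fitted to 9 arrays with limma 3.58.1 in R 4.3.3, with Benjamini-Hochberg adjustment over 39429 probes. Figures were drawn in Python. Gene names and mm9 positions are those of the files. The genes, lists and tests were chosen with earlier results of these data known. Every gene was named by role, with array values for those called between RPE and CH and the 8 with the largest differences from the PR. Of each pathway comparison, the called genes with the 2 largest differences per direction were named, apart from 1 that is not reported here. On simulated arrays, limma called 91 of 100 probes changed by 2 and 98 of 100 changed by 3 on the log2 scale, in RPE against CH and in RPE against PR. Both sizes lie above the fold threshold, so the simulation does not cover smaller changes. In all, 26 alternatives were run on background, normalization, reference channel, dim and marked spots, arrays fitted, blocks, variance model, probes, thresholds and single arrays left out.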

Additional observations from a re-analysis of the deposited data

How the results depend on the processing

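All 28 single-gene calls kept direction and threshold under every alternative that gave a test, except Fgf18 between RPE and CH, which within slide 2 had a difference of -1.98 and a B-H adjusted p of 0.021. Within slide 3, with 1 array per tissue and no test, 0 of the 28 differences changed sign and 14 moved by more than the spread between arrays. The replicate numbers are shared between tissues, and correlations of deviations do not settle whether they pair the samples. Same-numbered samples gave -0.078 to 0.286 over the pairs of tissues, and different-numbered samples -0.312 to 0.246. For replicate 2, whose arrays share slide 3, they were 0.164 for CH and RPE, 0.286 for CH and PR and 0.232 for RPE and PR. For replicate 3 of RPE and PR, which lay on different slides, the correlation was 0.285. With the replicate number as a block, the called FGF genes numbered 0 higher in RPE than CH, 1 higher in CH than RPE, 10 higher in RPE than PR, 3 higher in PR than RPE, 11 higher in CH than PR and 3 higher in PR than CH, the same counts as without it. Without RPE replicate 2 these counts were also the same.

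The counts of FGF genes higher in CH than RPE (1) became 2 with the Feature Extraction log ratio, 2 with median centring, 0 within slide 2 and 2 at a FC of 2. With an adjusted p below 0.05 and no fold threshold, the counts were 4 higher in RPE than CH, 5 higher in CH than RPE, 16 higher in RPE than PR, 6 higher in PR than RPE and 5 higher in PR than CH. The pathway list genes called between RPE and CH (1) became 2 with the Feature Extraction log ratio, 4 with median centring, 0 within slide 2, 6 at a FC of 2 and 20 at an adjusted p of 0.05, and ranged from 1 to 3 with each array left out in turn (3 without RPE replicate 1, 2 without RPE replicate 3). At an adjusted p of 0.05 the pathway counts were 39 for RPE against PR and 44 for CH against PR. The cause of the changes in these counts was not tested, apart from the thresholds themselves. The shares of all genes given above do not apply without a fold threshold. Past an unadjusted p of 0.05 in limma, 8721 of 31829 genes were higher and 8880 lower in RPE than in PR. For CH against PR these numbers were 8776 and 9585. Counts without a fold threshold are therefore not read as a result about FGF or pathway genes. The difference of Fgf5, which is at background in CH and RPE, grew to -4.29 and -4.46 against RPE and CH with the Feature Extraction log ratio. Centring moved the median of all probes by -0.17 (RPE minus PR) and -0.18 (CH minus PR) with the Feature Extraction log ratio, by -0.12 (RPE minus CH) with median centring and by -0.12 (RPE minus PR) in the series table. Signal over background limits 11 of the 36 genes, which were not well above background on all arrays of any tissue.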
